A study of Mus musculus with 15 samples.

Results

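RNA of RFP-positive, ALDH-negative (ALDH-) islet cells was compared between mice in which the lineage label was switched on by Pdx-Cre and mice in which it was switched on by RIP-Cre. The members were taken by their labels, as every ALDH- library of the series, which gave 8 of 15 libraries: 3 Pdx-Cre and 5 RIP-Cre. The question is which islet transcripts the wider Pdx-Cre lineage holds beside those of the RIP-Cre beta cell lineage. Islets were dissociated, incubated with a fluorescent aldehyde dehydrogenase substrate (aldefluor) and sorted for the red label and low aldefluor signal, and all libraries came from mice of the mixed 129JC57BL/6 background.

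Among the Pdx-Cre libraries, 1 came from FoxO Triple Heterozygous mice (Het, replicate 3) and 2 from FoxO Triple KO mice (KO, replicates 4 and 5). Among the RIP-Cre libraries, 2 were Het (replicates 1 and 2) and 3 were KO (replicates 1, 2 and 3). The genotype names cover Foxo1, Foxo3 and Foxo4, and the Cre transgene was the same within each set of libraries, so that in KO mice it drove both the label and the deletion. The labels call all of the samples sorted beta cells, whichever Cre was used. RIP-Cre islets were sorted from mice 6 months old, whereas the age and number of the Pdx-Cre mice, and whether single libraries stood for separate mice, are not given in the sources used here. The p-values below therefore measure the spread between these libraries.

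The rat insulin promoter of RIP-Cre is active once a cell makes insulin, so the label marks beta cells and the cells that beta cells turn into. Pdx1 is switched on in the embryonic pancreatic bud, before exocrine, duct and endocrine fates part, so a label set by Pdx-Cre can persist in every epithelial cell type of the pancreas. Within the islet these include the glucagon-producing alpha cells, the somatostatin-producing delta cells and the PP cells, which make pancreatic polypeptide.

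Values are FPKM (fragments per kilobase of transcript, scaled to the depth of the library), rescaled between libraries by factors between 0.917 and 1.05. Fragments worked out from the confidence intervals summed to between 7490987 and 10057002 per library. Correlations of log2 values were 0.902 to 0.958 between RIP-Cre libraries, 0.879 to 0.912 between Pdx-Cre libraries and 0.841 to 0.924 across them. Pdx-Cre KO replicate 5 stood farthest out on the first principal component, which held 32.1% of the variance, and ribosomal protein transcripts were highest there (median 0.466 above the mean of the libraries, log2 scale). That median was 0.255 and 0.007 in Pdx-Cre Het replicate 3 and KO replicate 4, and -0.333 to -0.02 with RIP-Cre. Slopes of such deviations on log2 transcript length were -0.058 to -0.008 with Pdx-Cre and 0.003 to 0.058 with RIP-Cre. Both traits thus separated by Cre driver. Their part in the differences was not tested, apart from a fit with the length trend removed, given further on. Sex and library order also moved with the Cre driver. Xist was at 75.4 and 57.3 FPKM in Pdx-Cre Het replicate 3 and KO replicate 5, where the Y-linked transcripts Eif2s3y, Kdm5d and Uty were at 0 FPKM, as in female cells. Pdx-Cre KO replicate 4 and all 5 RIP-Cre libraries had Xist at 0.144 FPKM or less and Eif2s3y at 22.1 FPKM or more, as in male cells. The RIP-Cre libraries carry the library numbers 1 to 9 of the series and the Pdx-Cre libraries the numbers 10 to 15, so Cre driver and library order cannot be told apart. Calls were therefore also counted in the male libraries, where Pdx-Cre KO replicate 4 is the only Pdx-Cre library and is assumed to vary like the others.

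Foxo1 read out the genotype labels in both lineages. It was at 17.7 FPKM in the Pdx-Cre Het library and at 19.4 and 16.1 FPKM in the RIP-Cre Het libraries. The KO libraries had 4.04 and 0.0981 FPKM with Pdx-Cre and 2.40, 3.60 and 2.45 FPKM with RIP-Cre. Foxo1 was thus lower in every KO library than in every Het library under either Cre driver. Foxo3 was at 13.9 FPKM in the Pdx-Cre Het library and at 11.4 and 17.4 FPKM in the Pdx-Cre KO libraries, and whole-gene values need not show the loss of single exons.

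Of 11110 genes tested with limma on log2(FPKM + 1), with genotype as covariate, 161 were called (1.45%). Of these, 112 were higher in Pdx-Cre cells (1.01% of the genes tested) and 49 were lower (0.441%) at an adjusted p under 0.05. The median log2 difference of all genes tested was -0.01. All 3 Pdx-Cre libraries lay above all 5 RIP-Cre libraries for 632 genes (5.69%) and below them for 656 (5.9%). Among the genes called, the ranges were separate for 108 of the 112 higher genes and 46 of the 49 lower genes. The X chromosome held 2 of the higher genes (Pgk1 and Sat1, 1.79%) and 2 of the lower genes (Chic1 and Sytl4, 4.08%). It held 390 of the genes tested (3.51%). No called gene lay on Y, where 4 genes were tested. In the male libraries alone, with 1 Pdx-Cre library left, 10 genes passed the threshold. Of the 161 genes called, 154 could be tested there, all 154 had the same sign, and 4 were still called (Gcg, Ppy, C530028O21Rik and Cox6a2). That agreement in sign was nearly given in advance, because the male fit reuses libraries that had chosen the 161 genes. Pdx-Cre KO replicate 4 itself lay beyond the RIP-Cre range for 110 of the 112 higher and 48 of the 49 lower genes. The number of calls depended on single libraries. It fell to 40 without Pdx-Cre Het replicate 3, the only Het library of its lineage, and rose to 261 without Pdx-Cre KO replicate 4. It was 53, 58, 58, 89 and 51 without RIP-Cre Het replicate 1, RIP-Cre Het replicate 2, RIP-Cre KO replicate 1, RIP-Cre KO replicate 2 and Pdx-Cre KO replicate 5. For the genes described below, the number of the 8 leave-one-out fits that kept the call is therefore given where it was under 8.

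**Figure D1:**
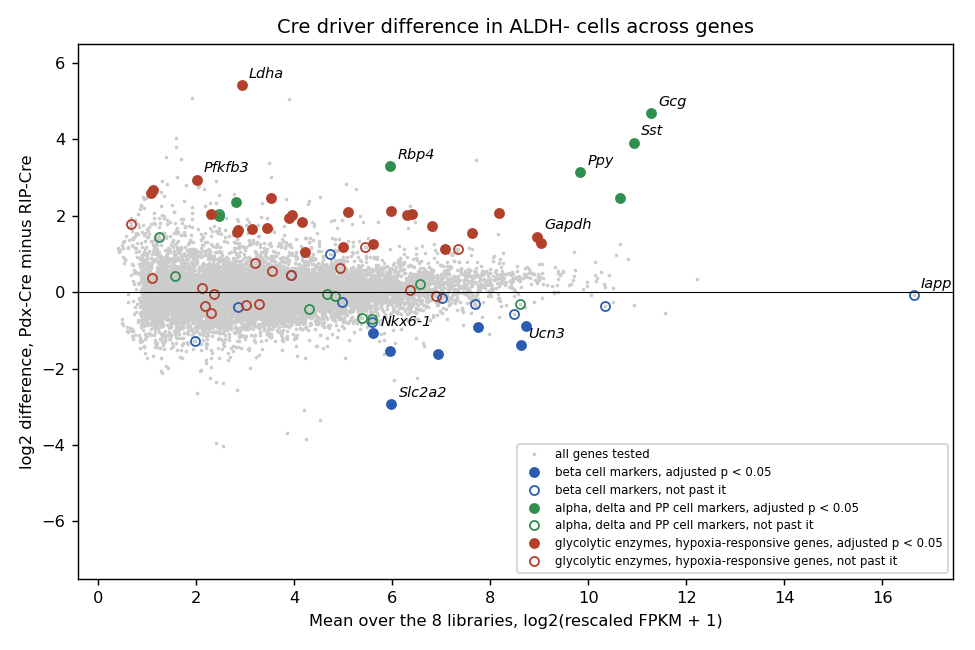
Log2 difference between Pdx-Cre and RIP-Cre ALDH- cells (vertical axis) against the mean log2(rescaled FPKM + 1) over the 8 libraries (horizontal axis); each point is a gene, and coloured points are members of the named lists, filled where the adjusted p was under 0.05. Gcg, Sst and Ppy stand high among abundant transcripts, Ldha and Pfkfb3 among low ones, and Slc2a2 lies lowest of the beta cell markers, while Iapp lies at -0.07.

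Hormones of the other islet cell types were among the leading higher genes, and Gcg had the smallest p of all genes. Gcg, which encodes proglucagon (chromosome 2, 62312586 to 62321710 in mm9), was at 39077, 16508 and 10113 FPKM in Pdx-Cre Het replicate 3, KO replicate 4 and KO replicate 5. In RIP-Cre Het replicates 1 and 2 and KO replicates 1, 2 and 3 it was at 697, 856, 655, 889 and 661 FPKM. Every Pdx-Cre library held at least 10 times the Gcg of any RIP-Cre library. The log2 difference was 4.69 (standard error 0.31, limma adjusted p = 9.85e-05), a 25.8-fold difference, and it was 4.50 in the male libraries alone (adjusted p = 0.00246).

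Sst encodes somatostatin, the delta cell hormone that restrains insulin and glucagon release (chromosome 16, 23889666 to 23890930 in mm9). In the same order of libraries, Sst was at 14863, 9325 and 8746 FPKM with Pdx-Cre and at 1002, 397, 892, 1009 and 493 FPKM with RIP-Cre. The ranges did not overlap, and the Pdx-Cre libraries differed among themselves by less for Sst than for Gcg. The log2 difference was 3.92 (standard error 0.34, adjusted p = 0.000404), or 15.1-fold. In the male libraries it was 3.61, with an adjusted p of 0.0996.

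Ppy encodes pancreatic polypeptide (chromosome 11, 101961244 to 101962614 in mm9), and its neighbour Pyy (chromosome 11, 101967990 to 101969090) encodes peptide YY. Ppy was at 9790, 3436 and 1165 FPKM with Pdx-Cre and at 752, 733, 415, 211 and 251 FPKM with RIP-Cre. Pyy was at 10038, 4610 and 2004 FPKM with Pdx-Cre and at 1353, 1270, 1408, 341 and 593 FPKM with RIP-Cre. Both were highest in the Het library and lowest in KO replicate 5 among the Pdx-Cre libraries, as was Gcg, and neither overlapped the RIP-Cre range. The log2 differences were 3.15 for Ppy (standard error 0.35, adjusted p = 0.00171) and 2.47 for Pyy (standard error 0.41, adjusted p = 0.019). The call for Pyy was lost without any one of RIP-Cre Het replicate 1, RIP-Cre Het replicate 2 and Pdx-Cre Het replicate 3, with adjusted p-values between 0.0516 and 0.12.

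The order of the 4 hormones was Gcg, Sst, Pyy and Ppy in each Pdx-Cre library, whereas the RIP-Cre libraries had no common order and 3 of them had Pyy highest. Gcg was 0.437, 0.187 and 0.0834 of Iapp, the beta cell peptide amylin, in the Pdx-Cre libraries and between 0.00603 and 0.00995 of it in the RIP-Cre libraries, both in FPKM. In these bulk libraries more cells of a type and more of its RNA per cell cannot be told apart. Exact permutation of the Cre labels within genotype gave a 2-sided p of 0.0333 for Gcg, Sst, Ppy and Pyy, the smallest that the 30 arrangements allow. The ranges of these genes were already separate, so this p adds little to that separation.

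**Figure D2:**
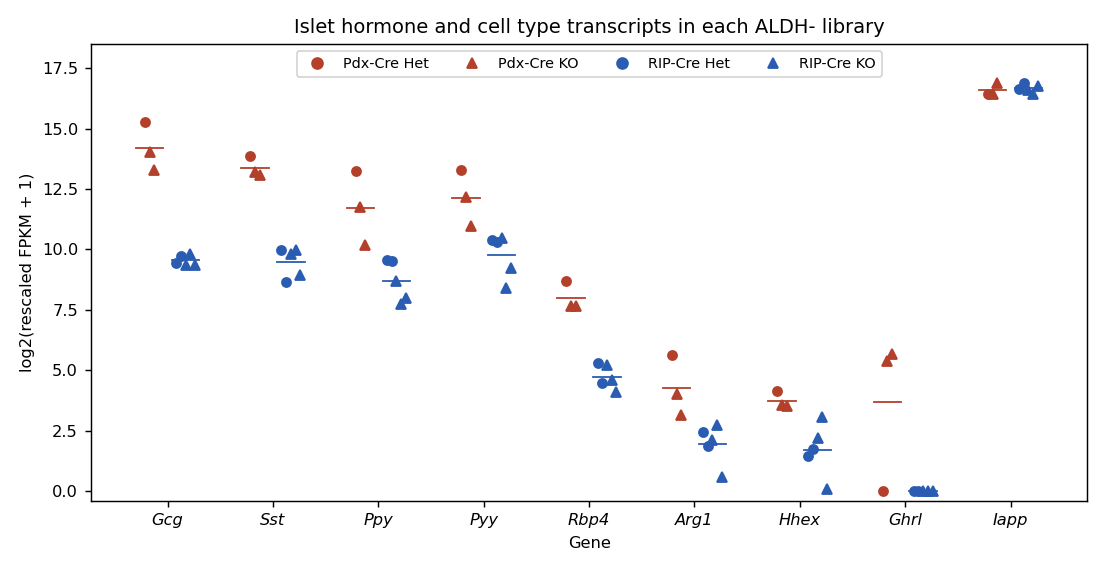
Log2(rescaled FPKM + 1) of islet hormone and cell type transcripts (vertical axis) in each ALDH- library, for Pdx-Cre (red) and RIP-Cre (blue) libraries, with circles for Het, triangles for KO and lines for the group means. The red points lie above the blue ones for every gene from Gcg to Hhex, Ghrl is at 0 in the Pdx-Cre Het library as in all RIP-Cre libraries, and the groups overlap for Iapp.

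The 250 bases before the start site of Gcg, Sst and Slc2a2 are shown because these genes stand for the 2 directions of the lineage difference. They are RefSeq sequences of build GRCm38.p6, at chr2:62483654-62483903, minus strand for Gcg, chr16:23890845-23891094, minus strand for Sst and chr3:28697653-28697902, plus strand for Slc2a2, a beta cell gene described further on. Capitals mark TAAT on either strand (read as ATTA on the other), the core that many homeodomain factors bind, and TGACGTCA, the cyclic AMP response element.
Gcg: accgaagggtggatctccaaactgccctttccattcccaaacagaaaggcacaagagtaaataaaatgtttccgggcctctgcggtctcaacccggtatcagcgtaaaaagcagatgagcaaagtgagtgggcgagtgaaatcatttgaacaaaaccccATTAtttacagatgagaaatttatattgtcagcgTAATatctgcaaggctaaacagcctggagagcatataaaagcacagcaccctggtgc
Sst: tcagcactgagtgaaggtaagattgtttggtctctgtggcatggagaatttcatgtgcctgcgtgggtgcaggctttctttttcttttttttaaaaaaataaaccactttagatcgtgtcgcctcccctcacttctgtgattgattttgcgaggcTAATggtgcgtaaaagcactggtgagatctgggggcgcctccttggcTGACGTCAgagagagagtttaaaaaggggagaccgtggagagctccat
Slc2a2: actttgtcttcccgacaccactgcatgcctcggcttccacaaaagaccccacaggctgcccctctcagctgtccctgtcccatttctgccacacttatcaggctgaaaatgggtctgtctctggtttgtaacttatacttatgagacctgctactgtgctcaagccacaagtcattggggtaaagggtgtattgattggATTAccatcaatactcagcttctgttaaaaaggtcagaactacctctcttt
Gcg has 2 TAAT matches, Slc2a2 has 1 and Sst has 1, beside 1 TGACGTCA that begins 48 bases before the start. Ppy holds neither. TAAT is common, in 55.3% of the 27025 RefSeq promoters of this length, and TGACGTCA is rare, in 1.62%. Among the genes called higher, 31 of 78 with a promoter (39.7%) hold TAAT, and 38.6% of the genes tested do.

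Among the markers of alpha cells, 7 of the 11 listed passed the expression filter, and 2 of them were called higher, Gcg among them. The median log2 difference over the 7 was 0.42. The alpha cell factors Irx1 and Pou3f4 fell below the filter and were not tested. Irx1 rested on 17, 24 and 72 fragments with Pdx-Cre and on 0 to 2 with RIP-Cre. Pou3f4 had 6, 16 and 14 fragments with Pdx-Cre and was listed at 0 in all RIP-Cre libraries. Both factors were thus above every RIP-Cre library in each Pdx-Cre library, at levels between 0.807 and 4.07 FPKM. Irx2, another factor of the same family as Irx1, was at 3.83, 1.56 and 5.81 FPKM with Pdx-Cre against 0.0802 to 1.17 FPKM (adjusted p = 0.134). Not every transcript of the list followed Gcg: Ttr (transthyretin) was at 775, 277 and 170 FPKM with Pdx-Cre and between 371 and 512 FPKM with RIP-Cre. Gc, the vitamin D binding protein, had a log2 difference of 0.22 (95% interval -0.20 to 0.65).

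Delta cell markers had the highest median of the islet cell lists. Of 6 markers 4 were tested, 3 were called higher, and the median log2 difference was 2.84, beside -0.01 over all genes. Rbp4, the plasma carrier of retinol, was at 417, 199 and 200 FPKM with Pdx-Cre and at 38.0, 21.3, 35.8, 22.9 and 16.4 FPKM with RIP-Cre. The lowest Pdx-Cre value was more than 5 times the highest RIP-Cre value, and the log2 difference was 3.31 (standard error 0.28, adjusted p = 0.000404). Arg1, arginase, was at 49.0, 15.1 and 7.86 FPKM against 0.513 to 5.71 FPKM (log2 difference 2.37, standard error 0.51, adjusted p = 0.049). The Arg1 call was kept only without RIP-Cre KO replicate 2, and without each other library the adjusted p lay between 0.0664 and 0.242. Hhex, the transcription factor that delta cells depend on, was at 16.7, 10.7 and 10.4 FPKM with Pdx-Cre and at 1.72, 2.38, 3.53, 7.30 and 0.0595 FPKM with RIP-Cre. The ranges were separate, but the test was not passed (log2 difference 2.04, adjusted p = 0.102). The ghrelin receptor gene Ghsr, below the filter, had 120, 53 and 22 fragments with Pdx-Cre and 0 to 17 with RIP-Cre.

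PP cell markers did not move as a list. Of 8 markers 6 were tested, Ppy and Pyy were called higher, and the median log2 difference was -0.07. Meis2 and Etv1, the transcription factors of this list, overlapped between the lineages, with log2 differences of -0.09 and -0.44.

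Ghrelin separated the Pdx-Cre libraries from one another. Ghrl was listed at 0 in the Pdx-Cre Het library and in all 5 RIP-Cre libraries, and was at 40.2 and 50.6 FPKM in the Pdx-Cre KO libraries. Among 12 tested islet and gut peptides, only Cartpt and Ucn3 were called. Cartpt, which encodes the peptide CART, was at 17.6, 10.2 and 36.1 FPKM with Pdx-Cre and between 0.851 and 6.91 FPKM with RIP-Cre (log2 difference 2.33, standard error 0.46, adjusted p = 0.0349). The call was kept without RIP-Cre Het replicate 2 or Pdx-Cre KO replicate 4 and lost without each of the other 6 libraries (0.0601 to 0.125). Npy was at 213 FPKM in Pdx-Cre Het replicate 3 and at 11.6 and 25.0 FPKM in the KO libraries, against 5.11 to 64.3 FPKM with RIP-Cre. Neurotensin (Nts) was at 10.2 FPKM in Pdx-Cre KO replicate 5 at 0.364 and 0.0932 FPKM in the other Pdx-Cre libraries, and at 0 in all RIP-Cre libraries.

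The beta cell list moved the other way. Of 20 markers 18 could be tested. The insulin genes were left out, because coverage was too high for an estimate of Ins1 in all libraries and of Ins2 in 3 RIP-Cre libraries. None of the 18 was called higher and 7 were called lower, beside 0.441% of all genes (Slc2a2, Sytl4, Ucn3, Nkx6-1, Slc30a8, Glp1r and Prlr). Of the 18, 16 had a negative log2 difference, with a median of -0.68. The summed level of the list, which Iapp makes up almost wholly, was 91218 to 123130 FPKM with Pdx-Cre and 93877 to 125238 FPKM with RIP-Cre.

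Slc2a2, the glucose transporter of mouse beta cells (chromosome 3, 28596824 to 28627282 in mm9), was at 22.3, 21.4 and 9.77 FPKM with Pdx-Cre and at 104, 124, 129, 233 and 114 FPKM with RIP-Cre. The highest Pdx-Cre value was far below the lowest RIP-Cre value. The log2 difference was -2.94 (standard error 0.31, adjusted p = 0.00171), 7.66-fold lower, and it stayed past the threshold without any single library. It was -2.76 in the male libraries (adjusted p = 0.0714).

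Ucn3, the peptide urocortin of mature beta cells, was at 227, 275 and 159 FPKM with Pdx-Cre and at 627, 678, 411, 644 and 533 FPKM with RIP-Cre. The ranges were separate, with a log2 difference of -1.38 (standard error 0.21, adjusted p = 0.0115), and the call was lost in 1 leave-one-out fit, without Pdx-Cre Het replicate 3 (0.0959). Sytl4, the granule docking protein granuphilin, was at 36.5, 29.9 and 27.7 FPKM against 73.5 to 113 FPKM (log2 difference -1.53, standard error 0.18, adjusted p = 0.00278). Slc30a8, the granule zinc transporter, was at 70.1, 95.6 and 30.5 FPKM with Pdx-Cre and between 165 and 222 FPKM with RIP-Cre. Its log2 difference was -1.63 (adjusted p = 0.0248), and the call was lost without each of RIP-Cre Het replicates 1 and 2, RIP-Cre KO replicates 1 and 2 and Pdx-Cre Het replicate 3 (0.0564 to 0.104).

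Receptors were among the lower genes. Glp1r, the receptor of the incretin GLP-1, was at 270, 348 and 255 FPKM with Pdx-Cre and at 593, 582, 483, 558 and 464 FPKM with RIP-Cre (log2 difference -0.88, standard error 0.17, adjusted p = 0.0284). Gcgr, the glucagon receptor, was at 0.822, 2.73 and 0.0610 FPKM with Pdx-Cre and between 6.18 and 13.9 FPKM with RIP-Cre (log2 difference -2.36, standard error 0.42, adjusted p = 0.0223). Prlr, the prolactin receptor, was at 155, 157 and 126 FPKM against 207 to 394 FPKM (adjusted p = 0.049). No Pdx-Cre library reached the RIP-Cre range for any of the 3 receptors. The Glp1r and Gcgr calls were kept without RIP-Cre KO replicate 3 or Pdx-Cre KO replicate 4 and lost without each of the other 6 libraries, with adjusted p-values up to 0.174 for Glp1r and 0.1 for Gcgr. The Prlr call was kept in no leave-one-out fit (0.0639 to 0.173). Among lactogen response genes, where 9 of 14 were tested and the median log2 difference was -0.47, Ddc was the other call. Ddc, the decarboxylase that makes serotonin and dopamine, was at 34.6, 27.2 and 21.0 FPKM with Pdx-Cre and at 87.8, 90.6, 86.5, 85.1 and 77.5 FPKM with RIP-Cre. It had the smallest p of all lower genes (log2 difference -1.61, standard error 0.17, adjusted p = 0.00171).

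Iapp did not share this direction. It was at 89385, 88307 and 121285 FPKM with Pdx-Cre and at 102507, 120634, 100172, 89370 and 109642 FPKM with RIP-Cre. The lineages overlapped throughout (log2 difference -0.07, 95% interval -1.03 to 0.89, adjusted p = 0.951; exact permutation p = 0.667). G6pc2, Abcc8, Kcnj11 and Pcsk1, which act in glucose sensing, in the potassium channel and in proinsulin processing, had log2 differences between -0.35 and -0.15, and none was called.

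Of 23 islet transcription factors 20 were tested, with 1 called in each direction and a median log2 difference of -0.04. Nkx6-1, which represses other fates in beta cells, was called lower, at 28.1, 29.0 and 33.0 FPKM with Pdx-Cre and at 66.3, 63.1, 56.2, 77.9 and 56.5 FPKM with RIP-Cre. The 3 Pdx-Cre values were close to each other and all below the RIP-Cre range (log2 difference -1.06, standard error 0.17, adjusted p = 0.0154). The call was lost without RIP-Cre Het replicate 1, RIP-Cre Het replicate 2 or Pdx-Cre Het replicate 3 (0.0535 to 0.102). Pdx1, whose promoter drives the wider Cre, was at 34.1, 50.9 and 20.9 FPKM with Pdx-Cre and at 69.4, 57.0, 44.4, 83.7 and 46.2 FPKM with RIP-Cre, and the ranges overlapped (adjusted p = 0.207). Mafa was at 1.90, 1.56 and 0.602 FPKM against 2.24 to 14.2 FPKM (log2 difference -1.27, adjusted p = 0.237). Pax6, Neurod1, Nkx2-2 and Isl1, which act in several islet endocrine cell types, had log2 differences between -0.27 and 0.32 and were not called. Exact permutation gave p = 0.0333, the smallest possible, for Slc2a2, Ucn3 and Nkx6-1, which adds little to their separate ranges.

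**Figure D3:**
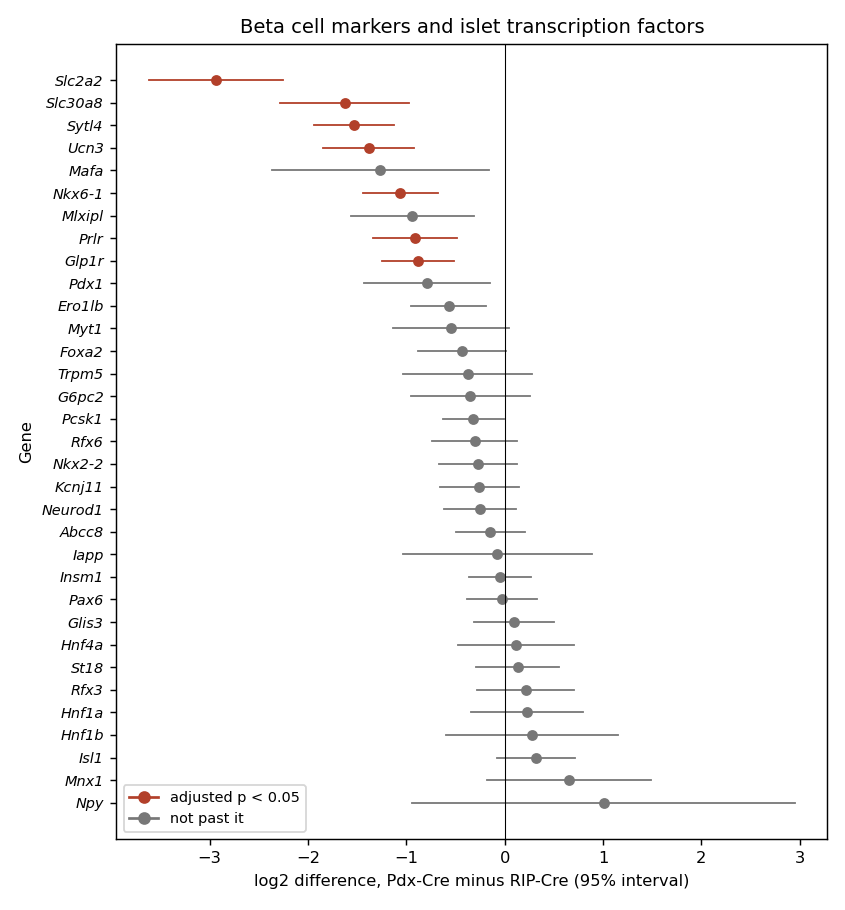
Log2 difference between Pdx-Cre and RIP-Cre ALDH- cells with its 95% interval (horizontal axis) for tested beta cell markers and islet transcription factors (vertical axis), in red where the adjusted p was under 0.05. Slc2a2 lies farthest to the left at -2.94, and most transcription factors lie near 0.

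A second large group of transcripts higher in Pdx-Cre cells encodes enzymes of glycolysis. The list of 27 enzymes was drawn up after the values had been seen, so its counts describe and do not test. Of 18 tested, 12 were called higher and none lower, beside 1.01% of all genes, and the median log2 difference was 1.37. Summed over the list, FPKM was 3890, 2079 and 4285 with Pdx-Cre and 1293, 1347, 1064, 1067 and 1332 with RIP-Cre.

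Ldha turns pyruvate into lactate and is one of the genes that mature beta cells keep almost silent (chromosome 7, 54101173 to 54110997 in mm9). It was at 97.3, 36.2 and 128 FPKM with Pdx-Cre and at 1.39, 2.03, 0.0640, 1.90 and 0.0658 FPKM with RIP-Cre. Every Pdx-Cre library held more than 10 times the Ldha of any RIP-Cre library. The log2 difference of 5.42 (standard error 0.45, adjusted p = 0.000404) was the largest of the 30 leading genes on the log2(FPKM + 1) scale. In the male libraries it was 4.65 for Ldha, below the 5.54 of C530028O21Rik. Ldha was also the only call among the 5 disallowed genes tested, a set of transcripts that most tissues make and beta cells lack.

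The steps of the pathway before it moved less far. Tpi1, triose phosphate isomerase, was at 234, 123 and 219 FPKM with Pdx-Cre and at 60.9, 47.9, 37.2, 34.7 and 53.2 FPKM with RIP-Cre (log2 difference 2.02, standard error 0.22, adjusted p = 0.00171). Pgk1, phosphoglycerate kinase, was at 272, 180 and 281 FPKM with Pdx-Cre and at 64.8, 66.6, 62.8, 74.3 and 87.6 FPKM with RIP-Cre (log2 difference 1.75, standard error 0.19, adjusted p = 0.00171). In both, Pdx-Cre KO replicate 4 was the lowest of the Pdx-Cre libraries and was still above all RIP-Cre libraries. Pfkl and Pfkp, liver and platelet phosphofructokinase, had log2 differences of 2.46 and 1.94, while the muscle form Pfkm was at 7.64, 7.52 and 7.48 FPKM, inside the RIP-Cre range of 7.13 to 17.5 FPKM. Gapdh, a common reference gene, was at 1194, 520 and 1279 FPKM with Pdx-Cre against 267 to 392 FPKM with RIP-Cre (log2 difference 1.46, standard error 0.26, adjusted p = 0.0235). The Gapdh call was kept without RIP-Cre KO replicate 3 or Pdx-Cre KO replicate 4 and lost without each of the other 6 libraries (0.0513 to 0.14). Gpi1, Pgam1, Aldoa, Aldoc, Eno1 and Eno2 were the other calls, with log2 differences between 1.19 and 2.06. Leave-one-out fits kept 7 of 8 for Pgam1, 6 for Gpi1, 3 for Aldoa, 2 for Aldoc, 2 for Eno1 and 1 for Eno2, and without Pdx-Cre Het replicate 3 all of these were lost (0.0992 for Gpi1, 0.1 for Pgam1). Eno1 overlapped, because RIP-Cre Het replicate 1 held 6.79 FPKM and Pdx-Cre KO replicate 4 held 6.47 FPKM. Pkm2 was at 313, 157 and 357 FPKM against 74.0 to 154 FPKM (adjusted p = 0.0657). Pklr, another pyruvate kinase gene, and Ldhb had adjusted p-values of 0.962 and 0.432. Several of these enzymes have near-identical processed copies in the genome that can share reads, so their single values are uncertain.

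Genes known to respond to low oxygen were higher beside them. This list of 28 was also drawn up after the values had been seen. Of 24 tested, 14 were called higher and none lower, 19 had separate ranges with Pdx-Cre above (5.69% of all genes did), and the median log2 difference was 1.65. Bnip3, which directs mitochondria to autophagy, was at 231, 143 and 257 FPKM with Pdx-Cre and at 43.6, 56.4, 59.3, 38.2 and 48.0 FPKM with RIP-Cre. The ranges were far apart (log2 difference 2.06, standard error 0.22, adjusted p = 0.00171), and the smallest value with a library left out was 1.86. P4ha1 and P4ha2, the collagen prolyl hydroxylase subunits, had log2 differences of 1.84 (adjusted p = 0.00194) and 2.01 (adjusted p = 0.00339), the latter lost without Pdx-Cre Het replicate 3 (0.0525). Pfkfb3, which makes the activator of phosphofructokinase, was at 12.2, 10.6 and 18.6 FPKM with Pdx-Cre and at 0.696, 1.79, 1.02, 0.803 and 0.362 FPKM with RIP-Cre. All Pdx-Cre values were above 10 FPKM and all RIP-Cre values below 2 FPKM (log2 difference 2.95, standard error 0.35, adjusted p = 0.00263).

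Slc2a1, the glucose transporter that most cells use in place of Slc2a2, was at 96.1, 46.6 and 132 FPKM with Pdx-Cre and at 24.0 FPKM or less with RIP-Cre. It was higher in every Pdx-Cre library, in the opposite direction to Slc2a2 (log2 difference 2.10, standard error 0.30, adjusted p = 0.00839), and the Slc2a1 call was lost in 1 leave-one-out fit, without Pdx-Cre Het replicate 3 (0.0783). Pdk1, the kinase that closes pyruvate entry into mitochondria, had a log2 difference of 1.64 (adjusted p = 0.0223, kept in 4 of 8 leave-one-out fits and up to 0.112 in the others), and Mif, a cytokine, one of 2.06 (adjusted p = 0.00278). Members that did not pass included Egln1 (0.64, adjusted p = 0.107) and Egln3 (1.80, adjusted p = 0.0913), which encode oxygen-sensing hydroxylases. Vegfa, the vascular growth factor, was at 110, 131 and 106 FPKM with Pdx-Cre and between 97.3 and 161 FPKM with RIP-Cre. Ndrg1 was at 80.5, 63.7 and 110 FPKM against 72.0 to 88.4 FPKM. Both overlapped, with log2 differences of -0.09 and 0.05.

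**Figure D4:**
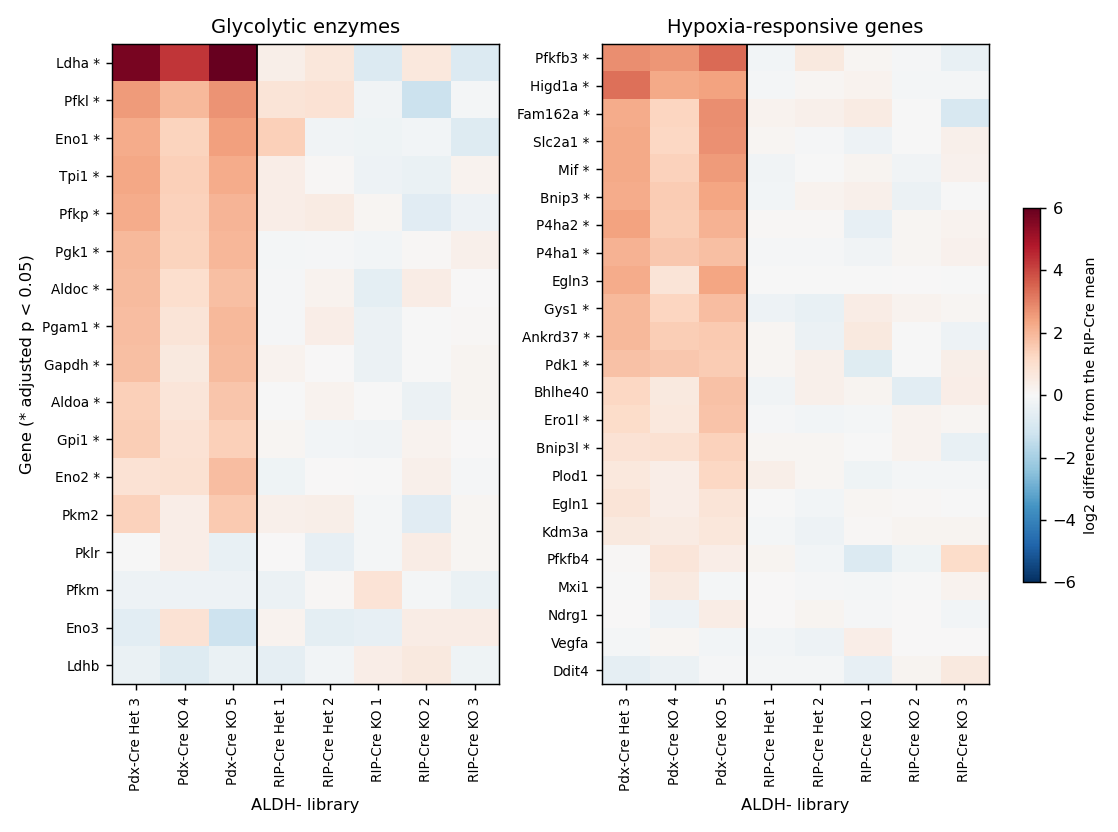
Log2 difference of each ALDH- library from the RIP-Cre mean (colour) for tested glycolytic enzymes and hypoxia-responsive genes, with 1 column for each library and a star at genes with an adjusted p under 0.05. The 3 Pdx-Cre columns are red for the starred genes and mostly paler in KO replicate 4, and Pfkm, Pklr, Ldhb, Vegfa and Ndrg1 show no such split.

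Genes of the hypoxia-inducible factors and their regulators did not pass the test. Of 8 such genes, 6 were tested and none was called, with 1 separate in each direction and a median of -0.14. Hif1a was at 28.8, 33.3 and 51.4 FPKM with Pdx-Cre and at 26.0, 22.5, 20.7, 21.9 and 21.7 FPKM with RIP-Cre. All Pdx-Cre libraries were above, by a log2 difference of 0.68 (95% interval 0.21 to 1.15, adjusted p = 0.149). Epas1, below the filter, had 88, 62 and 178 fragments with Pdx-Cre and 0 to 9 with RIP-Cre. Vhl and Arnt overlapped.

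The upstream 250 bases of Ldha and Pgk1 are shown because both genes were among the leading calls and because ACGTG is the core that hypoxia-inducible factors recognise. They are RefSeq sequences of build GRCm38.p6, at chr7:46845554-46845803, plus strand for Ldha (the first of 2 starts listed) and chrX:106186850-106187099, plus strand for Pgk1. Capitals mark ACGTG on either strand, read as CACGT on the other, and CACGTG holds both.
Ldha: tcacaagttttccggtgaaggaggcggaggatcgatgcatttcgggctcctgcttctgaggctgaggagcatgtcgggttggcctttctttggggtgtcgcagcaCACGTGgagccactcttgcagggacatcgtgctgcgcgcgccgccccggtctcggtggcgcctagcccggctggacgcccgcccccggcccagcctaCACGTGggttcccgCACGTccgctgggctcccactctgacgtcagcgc
Pgk1: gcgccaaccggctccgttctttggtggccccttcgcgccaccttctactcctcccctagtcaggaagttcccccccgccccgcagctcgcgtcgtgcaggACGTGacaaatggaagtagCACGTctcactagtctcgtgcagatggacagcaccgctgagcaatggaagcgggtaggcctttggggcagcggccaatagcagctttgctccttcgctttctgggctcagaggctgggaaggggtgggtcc
Ldha has 5 matches, of which 4 lie in 2 CACGTG palindromes, and Pgk1 has 2. Tpi1 has none in its window. ACGTG is present in 16.6% of all 27025 promoters and in 23% of those of the genes tested. Of the hypoxia-responsive genes tested, 19 had a promoter and 10 of them hold it (52.6%). That list was made of genes known to respond to low oxygen, so this share describes the list and not the difference between Cre drivers. Of the glycolytic enzymes 16 had a promoter and 4 hold ACGTG (25%). Among the genes called higher it is in 21 of 78 promoters (26.9%), and among those called lower in 3 of 40 (7.5%).

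Markers of exocrine and other cells varied mostly between the Pdx-Cre libraries. The 40 usable acinar markers summed to 87.8, 63.8 and 527 FPKM with Pdx-Cre and to 27.6 to 40.4 FPKM with RIP-Cre. Of 42 listed, 9 were tested and 2 were called, Cela1 among them. Cela1, an elastase, was at 17.0, 13.6 and 16.5 FPKM against 0 to 5.04 FPKM (log2 difference 2.54, adjusted p = 0.0336, kept in 3 of 8 leave-one-out fits and up to 0.157 without Pdx-Cre Het replicate 3). The abundant enzymes behaved differently. Ctrb1, chymotrypsinogen, was at 351 FPKM in Pdx-Cre KO replicate 5, 8.87 FPKM in Het replicate 3 and 0.134 FPKM in KO replicate 4, with RIP-Cre libraries between 0 and 0.412 FPKM. Cpa1, Cpb1, Pnlip and Amy2b were between 3.18 and 15.9 FPKM in KO replicate 5 and below 0.1 FPKM in both other Pdx-Cre libraries. Among the defining acinar markers Ptf1a was at 0 in all 8 libraries, and Cpa1, Prss2 and Amy2b were at 0 in all RIP-Cre libraries. Without KO replicate 5 the log2 differences were 5.05 for Gcg and 4.06 for Sst. KO replicate 5 held the lowest Gcg and Sst of the Pdx-Cre libraries, at 10113 and 8746 FPKM. Larger differences without it were thus given by its values and say nothing about the acinar transcripts.

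Of 21 duct markers 13 were tested and Krt8 was called (log2 difference 1.10, adjusted p = 0.024, kept in 3 of 8 leave-one-out fits and up to 0.101 without Pdx-Cre KO replicate 5), at 43.6, 42.2 and 49.3 FPKM against 15.2 to 25.2 FPKM. The summed list was at 871, 592 and 1194 FPKM with Pdx-Cre and 491 to 772 FPKM with RIP-Cre. The duct factor Sox9 was listed at 0 in 6 libraries and the duct channel Cftr in 7. Krt19 was at 3.24, 5.75 and 14.6 FPKM with Pdx-Cre and at 7.11 FPKM in RIP-Cre KO replicate 3, with the other RIP-Cre libraries below 1 FPKM. Immune markers summed to 144, 56.4 and 179 FPKM with Pdx-Cre and 24.7 to 41.4 FPKM with RIP-Cre. Cd68, a lysosomal protein of macrophages, made up most of this, at 107, 47.2 and 158 FPKM against 19.3 to 31.3 FPKM (log2 difference 1.83, adjusted p = 0.0246), and the Cd68 call was kept only without Pdx-Cre KO replicate 4 (0.0517 to 0.14 without each other library). The leukocyte marker Ptprc was at 0 in 7 libraries and 0.0234 FPKM in the eighth. Endothelial markers summed to 1.21 to 6.43 FPKM with Pdx-Cre and 0.807 to 5.33 FPKM with RIP-Cre, and mesenchymal markers to no more than 1.42 FPKM in any library. Red cell and glial markers summed to no more than 9.04 FPKM. The part of the acinar and immune transcripts in the other differences was not tested.

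All 15 prohormone processing genes and granins were tested, with a median log2 difference of 0.05. The ranges were separate for 6 of them, with Pdx-Cre above for 4 and below for 2. Pam, which amidates peptide hormones, was the only call, at 315, 364 and 461 FPKM against 177 to 240 FPKM (log2 difference 0.82, adjusted p = 0.049), and it was past the threshold in none of the 8 leave-one-out fits (0.0658 to 0.173). Chgb, chromogranin B, was also separate, at 2642, 2059 and 3390 FPKM against 1261 to 1665 FPKM (log2 difference 0.87, adjusted p = 0.0745). Pcsk2, the convertase that cuts proinsulin in beta cells and proglucagon in alpha cells, was at 719, 637 and 538 FPKM with Pdx-Cre and between 586 and 693 FPKM with RIP-Cre. Of 16 synaptic genes tested, Gap43 was called higher (log2 difference 2.92, adjusted p = 0.00974, lost without Pdx-Cre Het replicate 3, 0.1), and the median was 0.15. Jun was the only call of 18 immediate early and stress genes, at 47.7, 43.0 and 31.0 FPKM against 10.8 to 18.9 FPKM (log2 difference 1.34, adjusted p = 0.0214, kept in 4 of 8 leave-one-out fits and up to 0.136 without Pdx-Cre Het replicate 3). The median of that list was 0.74, and its summed level was 1526 to 1873 FPKM with Pdx-Cre and 1054 to 1220 FPKM with RIP-Cre. None of 20 unfolded protein response genes (median 0.24), 10 endocrine progenitor markers tested (0.50), 8 nuclear-retained lncRNAs (-0.01) or 3 Foxo genes (-0.20) was called. Of 6 retinoid genes tested Rbp4 was the only call, and Aldh1a3, the enzyme behind the aldefluor sort, was at 1.81, 0.482 and 4.11 FPKM with Pdx-Cre and between 0.482 and 4.19 FPKM with RIP-Cre.

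Beyond the lists, the leading higher genes included C530028O21Rik (Pianp in RefSeq), Cd24a and Fabp5. C530028O21Rik, on chromosome 6, was at 11.5, 45.6 and 72.9 FPKM with Pdx-Cre and listed at 0 in all 5 RIP-Cre libraries (adjusted p = 0.000404). Cd24a, a surface protein, was at 95.6, 85.6 and 55.3 FPKM against 18.9 to 27.1 FPKM (log2 difference 1.77, adjusted p = 0.00171), and Fabp5, a fatty acid carrier, at 19.4, 9.39 and 29.2 FPKM against 1.10 to 1.93 FPKM (2.90, adjusted p = 0.00397, lost without Pdx-Cre Het replicate 3, 0.0531). The leading lower genes were Ddc, Slc2a2, Sytl4, Cox6a2, Chic1, Ppm1b, Ucn3, Cmbl, Tmod1, Hadh, Nkx6-1, Vdr, Oxnad1, Fam151a and Gcgr. Of these, Ddc, Slc2a2, Sytl4, Cox6a2 and Ppm1b kept their calls in all 8 leave-one-out fits. Chic1 and Cmbl lost theirs without Pdx-Cre Het replicate 3 (0.0658 and 0.0857), and Tmod1, Oxnad1 and Fam151a kept theirs in 6, 3 and 3 fits. Cox6a2, a cytochrome oxidase subunit known from muscle, was at 40.4, 23.2 and 41.6 FPKM with Pdx-Cre and at 93.3, 140, 244, 180 and 187 FPKM with RIP-Cre. The ranges were separate (log2 difference -2.24, standard error 0.28, adjusted p = 0.00346). Hadh, a fatty acid oxidation enzyme that restrains insulin release, was at 126, 117 and 114 FPKM against 203 to 232 FPKM (log2 difference -0.87, adjusted p = 0.0152), and Vdr, the vitamin D receptor, at 40.0, 43.2 and 43.3 FPKM against 59.6 to 103 FPKM (-0.98, adjusted p = 0.0189). Without each of RIP-Cre Het replicate 2, RIP-Cre KO replicate 1 and Pdx-Cre KO replicate 5 both calls were lost, and that of Hadh also without Pdx-Cre Het replicate 3 (0.0528 to 0.0783 for Hadh, 0.0527 to 0.0692 for Vdr).

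Several log2 differences moved by more than 1.5-fold in the male libraries, where none of the following passed the threshold. Those that were smaller there were Ldha (4.65), Slc2a1 (1.26), Mif (1.31), Gapdh (0.68), Pgam1 (0.89), Fabp5 (2.06) and Cd68 (0.86) among the higher genes and Slc30a8 (-0.92) and Gcgr (-1.55) among the lower ones. Tmod1 was larger there (-2.60), as was Cox6a2 (-3.07), which did pass (adjusted p = 0.0134).

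Whether the lineage difference depended on the Foxo genotype was tested as an interaction, with a single Het library on the Pdx-Cre side. No gene of 11110 passed (limma, 335 at an unadjusted p under 0.05). Ghrl had the smallest p, with an interaction of 5.53 (standard error 0.69, adjusted p = 0.125), followed by the ribosomal protein gene Rps27 and the small nuclear RNA Rnu12. Rps27 was at 23.9 FPKM in the Pdx-Cre Het library and between 272 and 601 FPKM in the other 7, and Rnu12 was at 42.1 FPKM in that library alone. For Gcg the interaction was -1.51 (95% interval -2.65 to -0.37), for Sst -0.99 (-2.60 to 0.61), for Slc2a2 -0.99 (-2.38 to 0.41) and for Ldha 0.35 (-1.90 to 2.60), all with an adjusted p of 0.999. The intervals leave room for a difference between genotypes of more than 2-fold in either direction for Ldha.

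Whether the difference was that of ALDH+ cells too was tested over all 15 libraries, with 3 Pdx-Cre and 4 RIP-Cre ALDH+ libraries. No gene of 11231 passed the interaction (limma, 506 at an unadjusted p under 0.05), and the 3 smallest p-values belonged to Gmnn, Alg14 and Sst, each with an adjusted p of 0.137. Sst was at 2982, 755 and 1176 FPKM in the Pdx-Cre ALDH+ libraries and at 972, 780, 500 and 1321 FPKM in the RIP-Cre ALDH+ libraries. In these values the difference between Cre drivers was smaller than in ALDH- cells. The Sst interaction of -3.28 (95% interval -4.50 to -2.05) did not pass (limma adjusted p = 0.137), and Sst was picked for its small p. Gcg was at 5823, 269 and 608 FPKM against 304, 1022, 152 and 265 FPKM in ALDH+ cells, and its interaction was -3.27 (-5.33 to -1.21, adjusted p = 0.976). Rbp4 gave -2.95 (-4.28 to -1.62, adjusted p = 0.435). In ALDH+ cells Gcg, Sst and Rbp4 of the Pdx-Cre KO libraries lay within the RIP-Cre range, and those of the Pdx-Cre Het library above it.

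No difference in this respect between gene groups was tested, and single members of the other groups are given as values. Ldha was at 83.5, 35.1 and 125 FPKM in the Pdx-Cre ALDH+ libraries and at 0.384, 0.0692, 0.998 and 1.66 FPKM in the RIP-Cre ALDH+ libraries, with an interaction of 0.03 (-1.50 to 1.55). Slc2a2 was at 18.4, 24.7 and 8.75 FPKM against 96.5, 145, 129 and 106 FPKM, with an interaction of 0.14 (-0.92 to 1.20). Both kept separate ranges in ALDH+ cells. The interaction was 0.09 for Bnip3 (-0.63 to 0.80), 0.07 for Tpi1 (-0.75 to 0.90), 0.40 for Pgk1 (-0.23 to 1.03) and 0.08 for Nkx6-1 (-0.45 to 0.62). Among the other beta cell markers it was 0.61 for Sytl4 (0.03 to 1.19) and -0.65 for Ucn3 (-1.71 to 0.41), both with an adjusted p of 0.994.

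**Figure D5:**
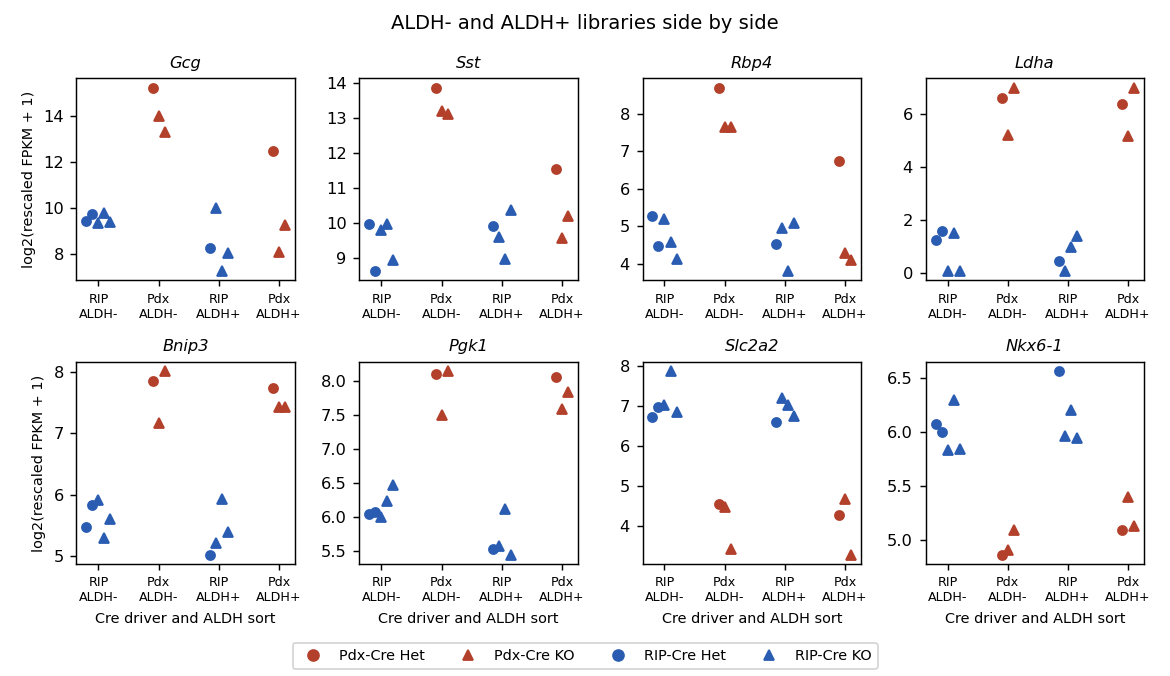
Log2(rescaled FPKM + 1) (vertical axes) of 8 genes in RIP-Cre (blue) and Pdx-Cre (red) libraries of ALDH- and ALDH+ cells (horizontal axes), with circles for Het and triangles for KO. Gcg, Sst and Rbp4 are raised in the Pdx-Cre ALDH- libraries and lower in the Pdx-Cre ALDH+ KO libraries, whereas Ldha, Bnip3, Pgk1, Slc2a2 and Nkx6-1 keep the split between Cre drivers in both sorts.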

How the data were processed

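RNA-seq libraries (poly-A) of sorted islet cells were compared by their labels. The authors deposited 1 table of FPKM values with confidence intervals per library; the submitters' processing notes name bcl2fastq 1.8.4, TopHat2 2.0.4 and mm9, and the tool that made the FPKM values is not given in the sources used here. FPKM are not counts, so no count model was run. Symbols listed more than once and estimates not marked OK were left out, values were rescaled by trimmed means of M-values (30% and 5% trimmed), and genes with a mean of at least 1 FPKM were tested on log2(FPKM + 1) with limma 3.58.1 in R 4.3.3, with Foxo genotype as covariate and Benjamini-Hochberg adjustment (threshold 0.05). Fold changes on this scale understate low genes. Tests of named values were exact permutations, and the procedure was tested on simulated data. Fragment numbers were worked out from the intervals, of which 66.5% fell within 0.02 of a whole number. The text names the 15 genes of smallest p in each direction with separate ranges, members of the lists, and the 3 leading genes of each interaction. Some list members are not reported here, although the counts of their lists hold them. The libraries compared and all lists were chosen with earlier results of these data known, and the glycolytic, hypoxia-responsive and hypoxia-inducible factor lists after the values had been seen.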

Additional observations from a re-analysis of the deposited data

Results flagged for a closer look

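Among the 5 RIP-Cre libraries, 16 of 132 genes examined had 1 library whose gap to its nearest neighbour exceeded 0.71 of the whole range. This is Dixon's limit for 5 values, which chance passes about 1 in 20 times for independent normal values. FPKM of related genes are neither, so the share of genes flagged is not a test. KO replicate 2 stood above the others for 8 of them. In it Slc2a2 was at 233 FPKM (104 to 129 in the others), Mafa at 14.2 (2.24 to 5.40), Pax6 at 116 (84.8 to 87.8) and Uty at 12.4 (8.80 to 9.58). Also in KO replicate 2, Cd74 was at 6.25 FPKM (1.35 to 2.70 in the others), S100a9 at 22.8 (0 to 6.02), Stc1 at 0.224 and Egln3 at 0.0402, with both of the last at 0 in the others. Stc1 and Egln3 rested on 8 and 1 fragments there, and a gene at 0 in all other libraries passes the limit at any value.

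KO replicate 1 held Penk at 4.89 FPKM (0.193 to 0.660 in the others), Pfkm at 17.5 (7.13 to 9.92) and P4ha2 at 5.55 (8.82 to 9.64). KO replicate 3 held Chic1 at 106 FPKM (145 to 150), Krt19 at 7.11 (0 to 0.933) and Ak4 at 2.22 (0.195 to 0.579). Het replicate 1 held Eno1 at 6.79 FPKM (0.740 to 1.58) and S100a8 at 4.93 (0 to 0.994).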

How the results depend on the processing

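The 161 calls between Cre drivers became 105 with a pseudocount of 0.1, 58 with no filter on low values, 12 in KO libraries alone, 61 in Het libraries alone, 249 with all 15 libraries in 1 fit, 325 with sample quality weights and 10 in male libraries alone, an alternative chosen after seeing the data. With 1 library left out they numbered 40 to 261. They were 119 with a filter at 5 FPKM, 141 without rescaling, 162 with the median of ratios, 157 without the genotype covariate and 143 with the length trend removed. The 0 calls of the interaction with genotype became 169 with no filter and 0 to 1 with a library left out (1 without Pdx-Cre KO replicate 5). Those of the interaction with ALDH became 3 with no filter and 0 to 1 with a library left out (1 without RIP-Cre Het replicate 2 and 1 without Pdx-Cre Het replicate 3). ALDH- and ALDH+ KO libraries of a Cre driver share replicate numbers, and the main fit did not take them as pairs. Deviations of the same number from their group means correlated by 0.037 to 0.205. With 2 Pdx-Cre KO libraries in each sort these deviations mirror each other, so both Pdx-Cre pairs give the same value of 0.205. Such a check cannot exclude that they are pairs. With the replicate block, the interaction with ALDH had 0 calls (615 at an unadjusted p under 0.05, limma). The causes of these shifts were not tested, apart from the fewer libraries that some fits hold by construction. No called gene named in the text changed sign in an alternative that could test it. This was nearly given in advance, because every alternative shares libraries with the fit that chose these genes. Cre driver and library order cannot be told apart. With 3 Pdx-Cre libraries, 1 of them Het and 2 of them female, Cre driver and sex can be told apart only in part. A single library assumed to vary like the others stands for Pdx-Cre in the male and Het fits. Near-identical copies of genes limit single values, and the intervals cover these libraries only.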

Other observations

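The genes named here were chosen after their values were seen and, apart from Foxo4, belong to none of the lists. Gpx3, a secreted glutathione peroxidase, was at 443, 148 and 149 FPKM in Pdx-Cre Het replicate 3, KO replicate 4 and KO replicate 5 and between 31.8 and 59.6 FPKM with RIP-Cre. The ranges were separate (log2 difference 2.25, limma adjusted p = 0.00832), and all 8 leave-one-out fits kept the Gpx3 call. Serpina3n, an acute phase protease inhibitor, was at 34.2, 113 and 257 FPKM with Pdx-Cre and between 11.1 and 34.2 FPKM with RIP-Cre (log2 difference 2.00, adjusted p = 0.0154), so that the Pdx-Cre Het library met the highest RIP-Cre library.

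S100a9, a subunit of calprotectin, was at 76.3, 43.3 and 767 FPKM with Pdx-Cre and at 22.8 FPKM or less with RIP-Cre (log2 difference 5.05, standard error 1.05, adjusted p = 0.0463). Its call was lost without each of 6 libraries, Pdx-Cre Het replicate 3 and KO replicate 5 among them (0.0688 to 0.179). S100a8, the other subunit, was at 325 FPKM in Pdx-Cre KO replicate 5 and at 4.93 FPKM or less in the 7 other libraries, and KO replicate 5 was also the library with the highest acinar sum (527 FPKM). In the male libraries alone the log2 differences of Gpx3 and S100a9 were 1.65 and 3.01, and neither passed (adjusted p = 0.224 and 0.535). Tspan8, Ceacam1 and Pigr, surface proteins of epithelia, had log2 differences of 2.45, 1.85 and 1.48, each with separate ranges. Of the 8 leave-one-out fits, 6 kept the call of Tspan8, 5 that of Ceacam1 and 2 that of Pigr, and the highest adjusted p with a library left out was 0.101 for Tspan8, 0.104 for Ceacam1 and 0.0984 for Pigr. In the male libraries the log2 difference of Ceacam1 was 1.01 (adjusted p = 0.372).

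Among lower genes outside the lists, Pclo and Cadps, which act in granule docking and priming, had log2 differences of -0.97 and -0.93 (adjusted p = 0.0235 and 0.0392). Wnt4, a signalling ligand, was at 15.2, 26.5 and 7.69 FPKM with Pdx-Cre and between 43.2 and 54.3 FPKM with RIP-Cre (log2 difference -1.71, adjusted p = 0.0235). Il6ra, the interleukin 6 receptor, had a log2 difference of -1.17 (adjusted p = 0.0234). All 4 had separate ranges. Of the 8 leave-one-out fits, 2 kept the call of Pclo, 0 that of Cadps, 3 that of Wnt4 and 3 that of Il6ra, with adjusted p-values of up to 0.109 for Pclo, 0.126 for Cadps, 0.104 for Wnt4 and 0.119 for Il6ra with a library left out. In the male libraries the log2 difference of Wnt4 was -0.94 (adjusted p = 0.32).

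Foxo4, which lies on X, was below the filter on low values. It was at 1.30 and 0.499 FPKM in the RIP-Cre Het libraries and listed at 0 in all RIP-Cre KO libraries. In the Pdx-Cre libraries it was at 0.120 FPKM in Het replicate 3, 0 in KO replicate 4 and 0.0710 FPKM in KO replicate 5.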
